A study of Homo sapiens with 6 samples.

Results

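The genes of the cytosolic translation initiation factors (symbols starting EIF) and elongation factors (symbols starting EEF) were compared between 2 sorted populations of MDA-MB-231 cells, an established human line of triple-negative breast cancer. The members were chosen by symbol alone, as EIF or EEF followed by a digit, leaving out EEF1E1, EIF1AY and the eIF2 kinases (EIF2AK). This gave 62 genes of the 15024 in the table, 50 of initiation and 12 of elongation, including inhibitors, kinases and methyltransferases named after a factor. All 6 libraries came from cells with a non-targeting guide (sgNT) kept for 14 days in 10 µM forskolin, an activator of adenylyl cyclase, so the controls carry both as well and no untreated cells enter the comparison. The CD104high group held CD44+ cells with high surface CD104, the integrin beta 4 subunit, and the CD104low group held CD44+ cells that were negative or low for it. The design text calls the former hybrid between epithelial and mesenchymal and the latter mesenchymal. Each group had 3 libraries, called biological replicates 1 to 3, all from 1 cell line, with no word on separate cultures or sorting runs. The p-values therefore measure the spread between these samples, which may be technical.

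Initiation begins when eIF2, bound to GTP, brings the initiator tRNA to the small ribosomal subunit together with eIF1, eIF1A, eIF3 and eIF5. The eIF4F complex, made of the cap-binding protein eIF4E, the scaffold eIF4G and the helicase eIF4A, recruits the mRNA, and eIF5B joins the subunits at the start codon. eIF2B then reloads eIF2 with GTP, a step that the integrated stress response blocks by phosphorylating eIF2. During elongation eEF1A delivers aminoacyl-tRNAs, the eEF1B subunits reload eEF1A, eEF2 moves the ribosome along and eIF5A helps it through difficult peptide bonds. Output of these factors is tied to growth through MYC, which acts on transcription, and mTORC1, which acts on the translation of their mRNAs.

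Of 61 tested factor genes, 33 fell in CD104high cells and 0 rose. The median log2 fold change was −0.28, with 52 genes below 0 and 9 above. A call means a limma adjusted p under 0.05, and 28 members were not called. Over all 14343 genes tested 11.3% were called lower and 12.1% higher, with a median of 0.01. At an unadjusted p under 0.05 there were 41 lower and 1 higher, against 18.2% and 18.7% of all genes tested. The factors are abundant genes, and among the 7940 tested genes with a mean of at least 1000 normalised reads 17.7% were called lower (median −0.05). The 3 CD104high libraries lay below the 3 CD104low libraries for 43 of the 61 members, against 21.3% of all genes tested, and above them for 3 (EIF5A2, EEF2K and EIF4EBP2), against 19.9%. The decreases were small: among called members they ran from 1.16-fold for EIF1AD to 1.62-fold for EEF1AKMT4. EIF4EBP3 had at least 10 normalised reads in only 2 of the 6 libraries and was not tested. Its mean was 13.3 ± 8.17 (SD, n = 3) for CD104high and 10.9 ± 11.9 for CD104low. In the authors' deposited table, 38 members had an adjusted p under 0.05 with a negative log2 fold change and 0 with a positive one, against 14.8% and 14.9% of the 13831 genes with an adjusted p there.

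The number of calls depended on single libraries more than the direction did. Of the 33 called members, 11 were called under every one of 20 alternatives at the same threshold, namely EIF3J, EIF3C, EIF3D, EIF4G2, EIF2S1, EIF5, EIF5A, EIF4E, EIF1AX, EIF3M and EIF6. The other 22 each lost the call without at least 1 library. With the replicate number as a block, 38 members were called lower, against 15.4% of all genes. Without CD104high replicates 1, 2 or 3, 14, 16 and 17 members were called lower, and without CD104low replicates 1, 2 or 3, 24, 21 and 31. The calls over all genes shrank too, to 799 lower without CD104high replicate 1 and 901 without CD104high replicate 2. The median of the 61 members stayed between −0.29 and −0.23 in these 6 fits.

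**Figure D1:**
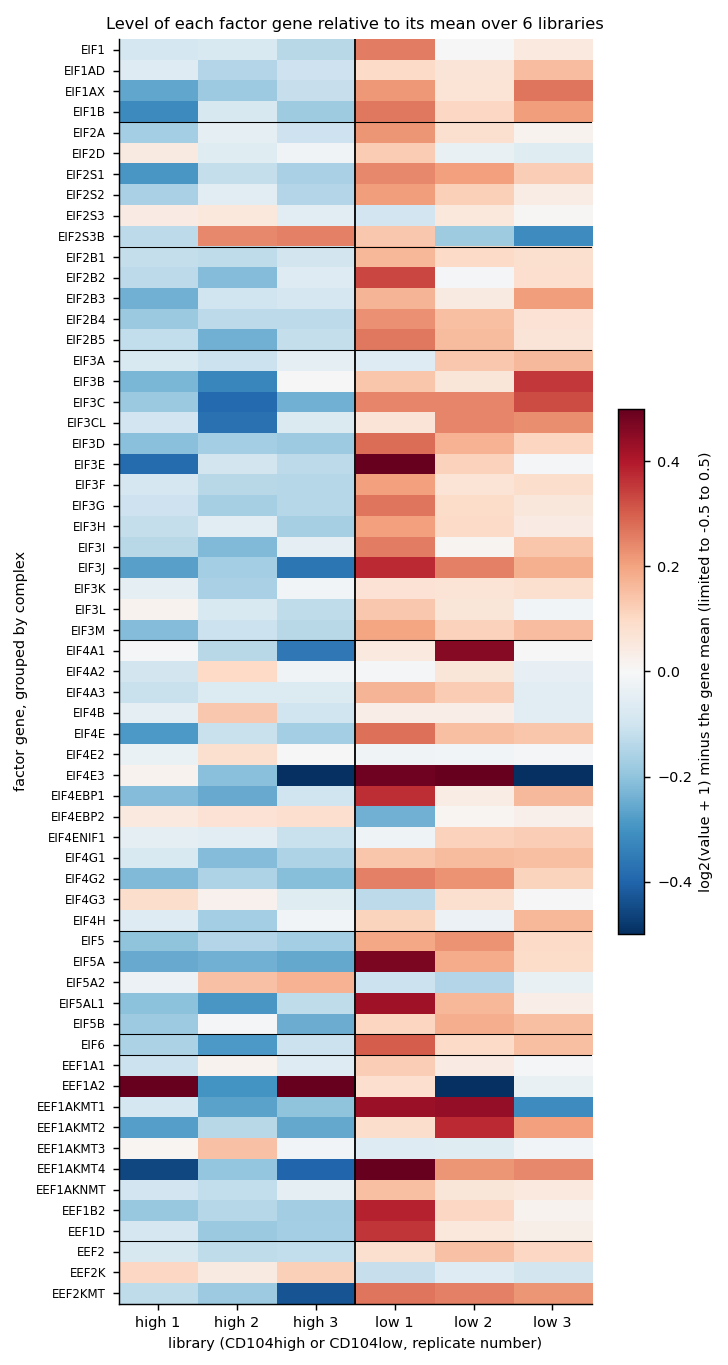
Each row is 1 of the 61 tested factor genes, each column 1 library, and the colour is log2(value + 1) minus the mean of that gene over the 6 libraries, limited to −0.5 to 0.5, with lines between complexes and between groups. Most rows are blue in the 3 CD104high libraries and red in the 3 CD104low libraries, and CD104low replicate 1 is the reddest column (median deviation 0.19). Of the 61 genes, 9 have a log2 fold change above 0, among them EEF1A2, EIF5A2, EIF2S3, EIF4EBP2 and EEF2K.

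Over the members, the median deviation from the gene mean was −0.12, −0.13 and −0.12 in CD104high replicates 1 to 3 and 0.19, 0.09 and 0.08 in CD104low replicates 1 to 3. The groups did not overlap on this measure, and CD104low replicate 1 stood highest. The normalised reads of all initiation factors summed to 490491, 494368 and 496529 in CD104high replicates 1 to 3 and 616089, 585500.3 and 580858 in CD104low replicates 1 to 3. For the elongation factors the sums were 683707, 729333 and 697279.7 in CD104high replicates 1 to 3 and 800808, 764986 and 740624 in CD104low replicates 1 to 3, and EEF1A1 made up most of them. Both sums were lower in every CD104high library than in every CD104low library.

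Recovered gene reads ranged from 52088604 to 56958065 per library, with the most in CD104low replicate 1. The sort marker ITGB4 was 5.83-fold higher in CD104high libraries. Of 6 markers of this line, VIM, AXL and CD44 were present in all 6 libraries and not called. FN1 and CAV1 were called higher, with log2 fold changes of 0.79 and 0.36 (limma adjusted p up to 0.055 and 0.0861 under alternatives). SPARC was low, at 72.2 ± 4.55 against 45.3 ± 22.1. The genes listed as low in the line included ERBB2 and GATA3. These were present, with means of 8727 and 1665 in CD104high and 7571 and 1462 in CD104low, and not called. ERBB2 was higher in every CD104high library and passed with the replicate block (limma adjusted p = 0.0264). ESR1 and PGR were not analysed here. Of 4 endothelial markers the 2 analysed summed to 60.7 to 130.4 normalised reads per library, and the 7 leukocyte markers were not analysed here. Fibroblast markers, 6 of 6 in the table, summed to 5067 to 7483 in CD104high and 3125 to 5156 in CD104low libraries, with COL1A2 2.82-fold higher (limma adjusted p = 0.00402). All 4 tested markers had a log2 fold change above 0. LUM and PDGFRB, at 2.22 and 0.62, had overlapping groups and were not called (limma adjusted p = 0.0591 and 0.128), but passed as higher with the replicate block (adjusted p = 0.000413 and 0.00102). PDGFRA and DCN were at or under 9.88 in every library. Genes of handling stress, 10 of 10 in the table, summed to 32945 to 35164 and 41417 to 42871, with HSPH1, JUN and ATF3 called lower (ATF3 with an adjusted p of up to 0.0953 under alternatives). Most of these sums came from a few abundant genes, and the 9 tested genes had a median log2 fold change of −0.05, with 4 above 0. FOS and JUNB, at 0.57 and 0.22, were not called but passed as higher with the replicate block (limma adjusted p = 0.0106 and 0.0361). The fibroblast sums overlapped between the groups and the stress sums did not, and the part of either in the results was not tested. In bulk RNA, fewer cells of a type and less RNA per cell cannot be told apart, and each value is relative to the other genes of its library.

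Among the factor genes, those whose annotated start resembled the pyrimidine tract of ribosomal protein mRNAs had a smaller median decrease than the rest. Such mRNAs start with a C and a run of C and T (the 5′ terminal oligopyrimidine or TOP motif), through which mTORC1 controls their translation. In the RefSeq promoter windows (GRCh38.p14, 250 bases before to 50 after each start), a start with C followed by at least 4 further C or T on the transcribed strand was present in 4.07% of all 35116 windows. By gene it was found for 7.13% of the 11103 tested genes with a window and for 13 of the 47 tested members with one (27.7%). The search was made after the values were seen. Of the 13 members with the tract, 4 were called lower with a median log2 fold change of −0.15, and of the 34 without it 22 were called lower with a median of −0.31. Over all tested genes the order was the other way, with 13.4% called lower of those with the tract and 11.8% of those without. The remaining 14 members had no window in the table used. The starts of the 13 members follow, as 15 bases before and 15 bases from the first transcribed base of the window on GRCh38.p14, with the tract in capitals up to the end of the printed window. They are shown because they are the sequences on which the split rests.
EEF1A1, chr6:73521018-73521047, minus strand: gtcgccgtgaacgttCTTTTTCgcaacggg
EEF2, chr19:3985449-3985478, minus strand: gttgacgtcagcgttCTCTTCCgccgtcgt
EEF1B2, chr2:206159880-206159909, plus strand: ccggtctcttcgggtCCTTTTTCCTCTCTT
EIF2A, chr3:150546772-150546801, plus strand: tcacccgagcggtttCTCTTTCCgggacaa
EIF2D, chr1:206612451-206612480, minus strand: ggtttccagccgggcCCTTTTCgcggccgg
EIF2S3, chrX:24054941-24054970, plus strand: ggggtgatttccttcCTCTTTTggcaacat
EIF2S3B, chr12:10505875-10505904, plus strand: ggggtgactttcttcCTCTTTTggcaacat
EIF3D, chr22:36529152-36529181, minus strand: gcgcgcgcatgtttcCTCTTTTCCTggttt
EIF3F, chr11:7987322-7987351, plus strand: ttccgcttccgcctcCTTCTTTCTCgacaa
EIF3K, chr19:38619173-38619202, plus strand: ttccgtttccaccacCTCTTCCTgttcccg
EIF3M, chr11:32583816-32583845, plus strand: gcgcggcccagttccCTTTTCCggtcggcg
EIF4A2, chr3:186783562-186783591, plus strand: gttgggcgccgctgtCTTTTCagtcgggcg
EIF4B, chr12:53006441-53006470, plus strand: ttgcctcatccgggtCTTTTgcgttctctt
The windows of EIF2S3 and EIF2S3B, near-identical copies on chromosomes X and 12, carry the same tract. EIF3D, EIF3F, EIF3M and EEF1B2 were the 4 that fell. A gene was counted with the tract if any of its annotated starts had it. EEF1B2 and EIF2S3B each also have an annotated start without the tract. For comparison, the starts of 5 members that were called lower in every alternative at the same threshold and have no tract are as follows, with no base in capitals.
EIF3J, chr15:44537132-44537161, plus strand: cacctccgccgtgctaactcctcgctagct
EIF2S1, chr14:67360313-67360342, plus strand: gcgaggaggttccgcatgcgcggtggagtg
EIF4E, chr4:98929119-98929148, minus strand: ccttctggagcggttgtgcgatcagatcga
EIF1AX, chrX:20141824-20141853, minus strand: gcaaagagtcgcggcgccatttgctgccgc
EIF3C, chr16:28688543-28688572, plus strand: ctctgtcccacccccgtggcaggcagccct
A gene may have other starts in these cells, and no match says only that the letters are not at the annotated start.

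**Figure D2:**
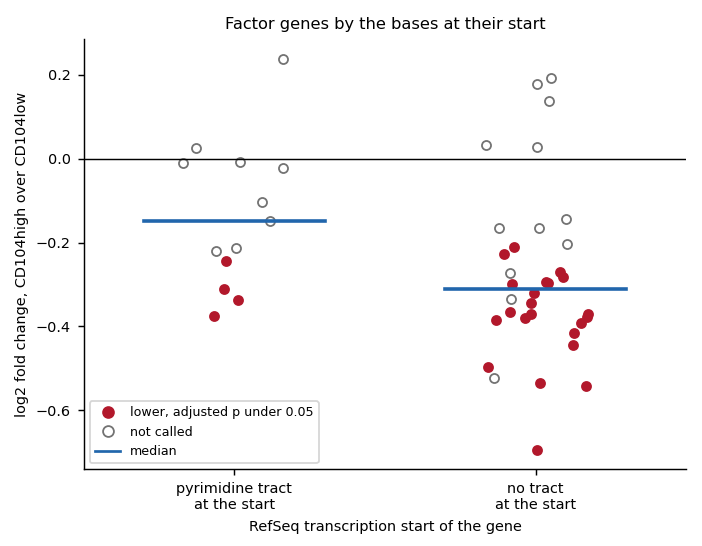
Each point is the log2 fold change (CD104high over CD104low) of 1 of the 47 tested factor genes with a RefSeq start. Genes are split by whether any start has the pyrimidine tract, with filled points for an adjusted p under 0.05 and a line at the median. The 13 genes with the tract have a median of −0.15 and the 34 without it −0.31, and points of both sets span the line at 0.

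The E-box CACGTG, the preferred site of MYC and related factors and its own reverse complement, was searched for in the same windows. It was present in 7.26% of all windows, for 12.2% of the tested genes with a window and for 12 of the 47 members (25.5%). Of the 12 members, 6 were called lower (median −0.20), and of the 35 without it 20 were (median −0.30). Over all tested genes the order of the shares was the other way, with 16.0% called lower of those with an E-box and 11.4% of those without. EIF4E had the letters 225 and 72 bases before its start, and EIF4G1 144 and 67 bases before the start of 1 of its windows. EEF1AKMT4 (log2 fold change −0.69, called lower) and EIF5A2 (0.19, not called) also had such a pair. Only the stretches of EIF4E and EIF4G1 are printed, with the E-boxes in capitals. They are the called members of the cap-binding complex with such a pair.
EIF4E, chr4:98929190-98929368, minus strand: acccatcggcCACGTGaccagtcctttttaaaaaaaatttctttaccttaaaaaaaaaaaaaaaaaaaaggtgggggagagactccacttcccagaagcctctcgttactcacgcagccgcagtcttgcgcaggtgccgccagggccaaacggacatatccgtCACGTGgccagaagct
EIF4G1, chr3:184314452-184314554, plus strand: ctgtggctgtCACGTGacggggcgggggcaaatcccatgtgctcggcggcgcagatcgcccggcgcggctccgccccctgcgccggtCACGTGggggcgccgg
MYC itself was lower in CD104high cells, at 5284 ± 74.3 (SD, n = 3) against 8011 ± 491 normalised reads (log2 fold change −0.60, limma adjusted p = 0.00046). Of the 11 members in the hallmark list of MYC targets (version 1), as written out by hand, 9 were called lower, with a median of −0.37. The 2 not called were EIF4A1 and EIF4H. The CD104high libraries lay below the CD104low libraries for 10 of the 11. Among all 61 tested members 33 were called lower and 43 lay below. Over all genes tested these shares were 11.3% and 21.3%. A separate list of 12 tested factors whose mRNAs are known to carry the TOP motif had 5 called lower and a median of −0.19. Lists and members were chosen with results of these data known, and the shares are descriptions.

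Of the 14 eIF3 genes 10 fell, against 11.3% of all genes tested called lower. eIF3 is the large scaffold on the small ribosomal subunit during initiation. All 14 genes had a log2 fold change below 0, from −0.12 for EIF3L to −0.54 for EIF3C, with a median of −0.29. The groups did not overlap for 12 of the 14, with CD104high below, against 21.3% of all genes tested. EIF3J, the loosely bound subunit at the decoding site (ENSG00000104131.13, chromosome 15, 44537057 to 44563029, plus strand, GENCODE 29 on GRCh38), had 3372, 3612 and 3166 normalised reads in CD104high replicates 1 to 3 and 5264, 4841 and 4606 in CD104low replicates 1 to 3. It was 1.45-fold lower with no overlap (log2 fold change −0.53, SE 0.079, limma adjusted p = 0.00165). EIF3D, a subunit that can itself bind the cap of some mRNAs, had 8351, 8564 and 8492 normalised reads in CD104high and 11713, 10874 and 10392 in CD104low replicates. The CD104high libraries lay close together below the others (log2 fold change −0.37, SE 0.066, limma adjusted p = 0.00366). EIF3M, a subunit of the structural core, had 7399, 7987 and 7809.6 normalised reads in CD104high and 9852, 9318 and 9574 in CD104low replicates, again with no overlap (log2 fold change −0.31, SE 0.063, limma adjusted p = 0.00709).

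EIF3C encodes a core subunit that contacts eIF1 and eIF5 and had 806, 699 and 775 normalised reads in CD104high and 1086, 1084 and 1148 in CD104low replicates. It was 1.46-fold lower (log2 fold change −0.54, SE 0.095, limma adjusted p = 0.00359). EIF3CL, its near-identical copy on the same chromosome, had a log2 fold change of −0.36 (limma adjusted p = 0.0564; 0.033 with the replicate block and 0.0315 with DESeq2), and reads could be split between them, so the level of each is uncertain. EIF3B, the scaffold of the peripheral subunits, had 15626, 14636 and 18331 normalised reads in CD104high and 20173, 19137 and 23419 in CD104low replicates. In both groups replicate 3 was highest, and the groups did not overlap (log2 fold change −0.37, SE 0.10, limma adjusted p = 0.0255). EIF3G, an RNA-binding subunit, had 8351, 7995 and 8117 normalised reads in CD104high and 10790.0, 9562 and 9328 in CD104low replicates, with every CD104high library lower (log2 fold change −0.28, SE 0.072, limma adjusted p = 0.0209). EIF3F, a core subunit with a protease-like fold, had 13219, 12728 and 12693 normalised reads in CD104high and 16163, 14691 and 14906 in CD104low replicates. Here too the groups were apart (log2 fold change −0.24, SE 0.065, limma adjusted p = 0.0233).

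EIF3A, the largest subunit and the one with most reads, did not pass the test. Its values were 29651, 28999 and 30277 normalised reads in CD104high and 29932, 34310.2 and 34975 in CD104low replicates. CD104low replicate 1 fell inside the CD104high range (log2 fold change −0.15, SE 0.076, limma adjusted p = 0.169), and without that library EIF3A was called lower (adjusted p = 0.0275). EIF3I, EIF3H and EIF3E were also called lower, with log2 fold changes of −0.27, −0.23 and −0.41. EIF3E varied most in this complex, from 19532 in CD104high replicate 1 to 36154 in CD104low replicate 1. EIF3K and EIF3L were not called (−0.15 and −0.12), and 41.1% of the exon bases of EIF3L are shared with another gene on the same strand. Of the 8 subunits of the structural core (EIF3A, C, E, F, H, K, L and M) 5 were called lower with a median of −0.24, and of the 5 others (EIF3B, D, G, I and J) 5 were, with a median of −0.37. The share called lower over all genes tested was 11.3%. The calls in this complex ended for EIF3B without CD104high replicates 1 or 2 or CD104low replicate 3 (adjusted p 0.0627 to 0.1), for EIF3E without CD104high replicates 1, 2 or 3 or CD104low replicates 1 or 2 (adjusted p 0.0583 to 0.176), for EIF3F without CD104high replicates 1, 2 or 3 (adjusted p 0.0548 to 0.0813), for EIF3G without CD104high replicates 1, 2 or 3 (adjusted p 0.0546 to 0.0771), for EIF3H without CD104high replicates 1, 2 or 3 or CD104low replicates 1 or 2 (adjusted p 0.0681 to 0.122) and for EIF3I without CD104high replicates 1 or 2 or CD104low replicates 1 or 3 (adjusted p 0.0595 to 0.123).

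**Figure D3:**
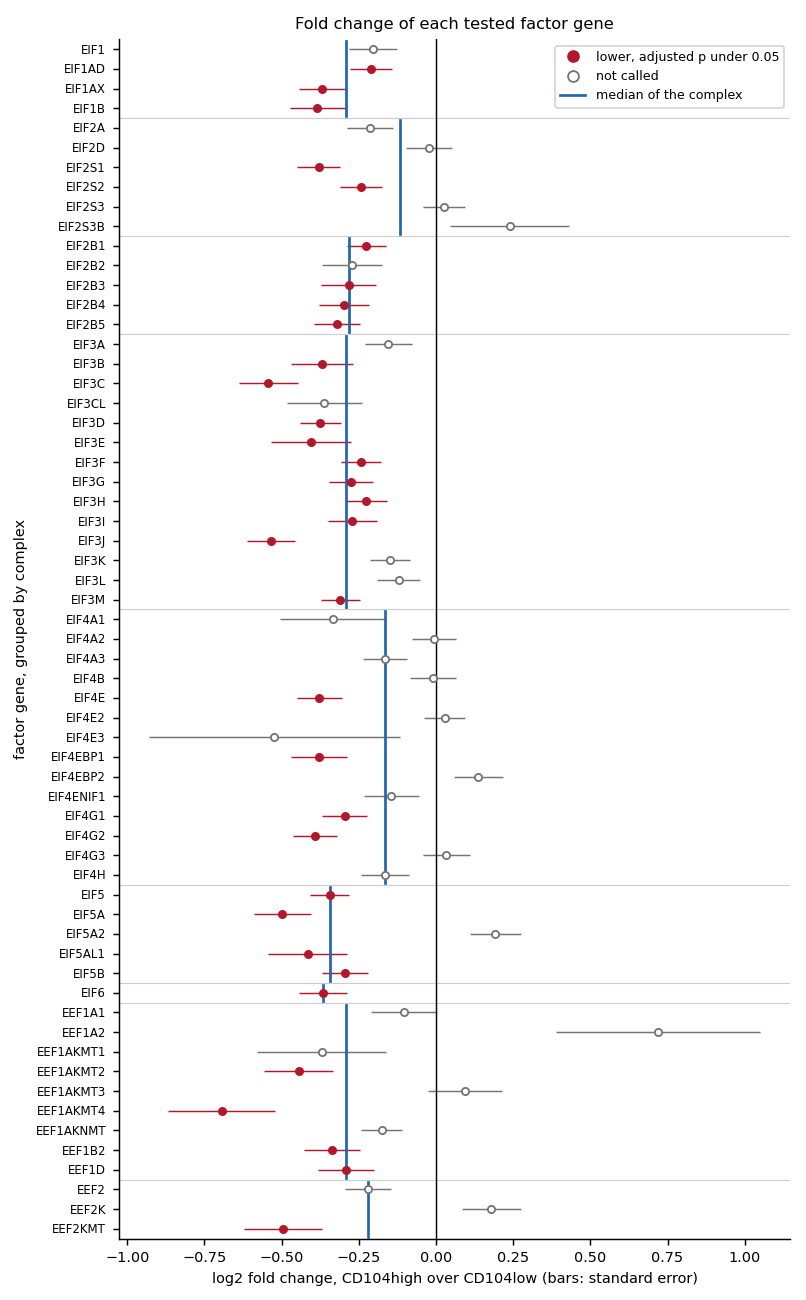
Each point is the log2 fold change (CD104high over CD104low) of 1 tested factor gene with its standard error, grouped by complex from EIF1 to EEF2, with filled points for an adjusted p under 0.05 and a blue line at the median of the complex. All 14 EIF3 genes and all 5 EIF2B genes lie left of 0, while the EIF4 genes split around a median of −0.17 and EEF1A2 lies furthest right at 0.72 with the widest error among genes right of 0.

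Of the 3 genes of the eIF2 subunits 2 fell, against 11.3% of all genes tested called lower. EIF2S1 encodes the alpha subunit, which carries the serine that the stress kinases phosphorylate (ENSG00000134001.14, chromosome 14, 67359997 to 67386516, plus strand, GENCODE 29 on GRCh38), and had 7029, 7902 and 7680.0 normalised reads in CD104high and 10153, 9907 and 9355 in CD104low replicates. It was 1.3-fold lower with no overlap (log2 fold change −0.38, SE 0.069, limma adjusted p = 0.00438). EIF2S2, the beta subunit that binds eIF5 and eIF2B and the one with most reads, had 12334, 13328 and 12475 normalised reads in CD104high and 15956, 15016 and 14175 in CD104low replicates. It was called lower as well (log2 fold change −0.24, SE 0.069, limma adjusted p = 0.0303), and the call ended without CD104high replicates 1, 2 or 3 or CD104low replicates 1 or 2 (adjusted p 0.0512 to 0.105). EIF2S3, the gamma subunit that binds GTP and the initiator tRNA, had 11406, 11495 and 10661 normalised reads in CD104high and 10377, 11484 and 11113 in CD104low replicates. Its groups overlapped (log2 fold change 0.03, SE 0.067, limma adjusted p = 0.815), and the sign turned without CD104low replicate 1 (−0.01). Per kilobase of exon, the ratio of EIF2S1 to EIF2S3 was 0.379, 0.422 and 0.443 in CD104high and 0.601, 0.530 and 0.517 in CD104low replicates 1 to 3. This pair was chosen after its values were seen, and the ratios did not overlap (difference of the log2 ratio −0.41, exact two-sided permutation p = 0.1, the smallest that 3 against 3 allows, and 0.3 after adjustment over 6 pairs).

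EIF2S3B, the autosomal near-copy of the gamma subunit gene, was low at 168 ± 24.3 against 143 ± 23.4 and was not called (log2 fold change 0.24, SE 0.19, limma adjusted p = 0.405), and reads of EIF2S3 and EIF2S3B could be mixed. EIF2A and EIF2D, which deliver initiator tRNA outside the main pathway, were not called, with log2 fold changes of −0.21 and −0.02. EIF2A passed as lower with the replicate block (adjusted p = 0.0489) and with DESeq2 (adjusted p = 0.0472). Together 2 of the 6 genes of this group were called lower, against 11.3% of all genes tested. The median was −0.12 (−0.063 with the length and GC trend removed).

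The genes of eIF2B, the exchange factor of eIF2, had smaller differences among themselves. All 5 had groups that did not overlap, 4 were called lower, and the median was −0.28. Of all genes tested, 21.3% had the CD104high libraries below the others and 11.3% were called lower. EIF2B5 encodes the catalytic epsilon subunit and had the smallest p and the most reads. Its values were 4856, 4467 and 4865 normalised reads in CD104high and 6334, 5889 and 5518 in CD104low replicates. CD104low replicate 1 was highest and the groups were apart (log2 fold change −0.32, SE 0.074, limma adjusted p = 0.0127). EIF2B4, the delta subunit of the regulatory core, had 1341, 1394 and 1392 normalised reads in CD104high and 1787, 1691 and 1602 in CD104low replicates, with no overlap (log2 fold change −0.30, SE 0.08, limma adjusted p = 0.0239). EIF2B1 (alpha) and EIF2B3 (gamma) were called lower with log2 fold changes of −0.23 and −0.28. EIF2B2 (beta) had −0.27 and was not called (limma adjusted p = 0.0687), but passed with the replicate block (adjusted p = 0.0257) and with DESeq2 (adjusted p = 0.0378). The 4 calls ended for EIF2B5 without CD104high replicate 2 (adjusted p = 0.0587), for EIF2B4 without CD104high replicates 1, 2 or 3 or CD104low replicates 1 or 2 (adjusted p 0.0561 to 0.0826), for EIF2B1 without CD104high replicates 1, 2 or 3 or CD104low replicates 1 or 2 (adjusted p 0.0534 to 0.0946) and for EIF2B3 without any 1 of the 6 libraries (adjusted p 0.0574 to 0.153).

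Around eIF2, the genes that reverse its phosphorylation fell, as did 1 of the 4 kinases. PPP1R15A (GADD34), the stress-induced partner of the phosphatase that removes phosphate from eIF2, had 3102, 2918 and 3302 normalised reads in CD104high and 4627, 3939.6 and 4406 in CD104low replicates, with no overlap (log2 fold change −0.48, limma adjusted p = 0.00343). PPP1R15B, its constitutive counterpart, was also called lower (−0.28, adjusted p = 0.0184). Of the kinases, EIF2AK4 (GCN2, which senses uncharged tRNA) was called lower (−0.24, adjusted p = 0.0247). EIF2AK1 (HRI), EIF2AK2 (PKR) and EIF2AK3 (PERK) had log2 fold changes of 0.07, 0.01 and 0.21 and were not called. For EIF2AK3 all CD104high libraries (1137 to 1171 normalised reads) lay above the CD104low libraries (965 to 1025). It passed as higher in 1 of 20 alternatives (adjusted p = 0.0337). Under alternatives the adjusted p of PPP1R15B reached 0.0828 and that of EIF2AK4 0.0983. Of the 6 genes 3 were called lower and 0 higher, against 11.3% and 12.1% of all genes tested, with a median of −0.12.

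In the eIF4 group 4 of 14 tested genes fell, namely the cap-binding protein EIF4E, its inhibitor EIF4EBP1, the scaffold EIF4G1 and its relative EIF4G2. The scaffold EIF4G3, the helicases and the other members were not called, and the median was −0.17. Over all genes tested 11.3% were called lower, and 17.7% of those with a mean of at least 1000 normalised reads. EIF4E, which binds the mRNA cap (ENSG00000151247.12, chromosome 4, 98871684 to 98930637, minus strand, GENCODE 29 on GRCh38), had 3863, 4364 and 4196 normalised reads in CD104high and 5712, 5229 and 5195 in CD104low replicates. It was 1.3-fold lower with no overlap (log2 fold change −0.38, SE 0.074, limma adjusted p = 0.00595). EIF4EBP1, the inhibitor that mTORC1 removes from eIF4E by phosphorylation, had 3329, 3247 and 3608 normalised reads in CD104high and 4991, 3969 and 4333 in CD104low replicates. It fell by nearly the same amount (log2 fold change −0.38, SE 0.091, limma adjusted p = 0.0152), with the highest value in CD104low replicate 1. The ratio of EIF4E to EIF4EBP1 per kilobase was 0.0885, 0.103 and 0.0887 in CD104high and 0.0873, 0.1005 and 0.0915 in CD104low replicates 1 to 3. Its groups overlapped, with a difference of the log2 ratio of 0.00 (exact two-sided permutation p = 1).

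EIF4G1, the main scaffold of the cap complex and the member with most reads in this group, had 68000.1, 61671 and 64356 normalised reads in CD104high and 78748, 79861 and 79443 in CD104low replicates. The CD104low libraries lay within a narrow range above all CD104high libraries (log2 fold change −0.30, SE 0.072, limma adjusted p = 0.0162). EIF4G2 (DAP5), a relative that lacks the eIF4E-binding part and serves initiation without eIF4E (ENSG00000110321.17, chromosome 11, 10797050 to 10809110, minus strand, GENCODE 29 on GRCh38), had 46849, 49055 and 47174 normalised reads in CD104high and 65041, 63853 and 59027 in CD104low replicates. It was 1.31-fold lower (log2 fold change −0.39, SE 0.071, limma adjusted p = 0.00429). EIF4G3, the other scaffold paralog, had a log2 fold change of 0.03 (SE 0.075) with overlapping groups. The ratio of EIF4G1 to EIF4G2 per kilobase did not separate the groups, at 1.52, 1.32 and 1.43 in CD104high and 1.27, 1.31 and 1.41 in CD104low replicates 1 to 3 (difference of the log2 ratio 0.10, exact two-sided permutation p = 0.2). Of the calls, those of EIF4E and EIF4G2 held in every alternative at the same threshold, that of EIF4EBP1 ended without CD104high replicates 1 or 2 (adjusted p 0.0615 to 0.0628) and that of EIF4G1 without CD104high replicates 2 or 3 or CD104low replicate 2 (adjusted p 0.0527 to 0.0725).

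EIF4A2, a helicase subunit, had 13768, 15736 and 14488 normalised reads in CD104high and 14573, 15320.2 and 14256 in CD104low replicates. The groups overlapped and the sign depended on the setting (log2 fold change −0.01, SE 0.07, limma adjusted p = 0.957). EIF4A1, its paralog, had only 263, 239 and 206 normalised reads in CD104high and 273, 361 and 264 in CD104low replicates. The groups nearly touched, and the gene was not called (log2 fold change −0.33, SE 0.17, limma adjusted p = 0.183), and 48.6% of its exon bases are shared with another gene on the same strand, so its level per kilobase, 50.3 against 2395 normalised reads for EIF4A2, cannot be read as its abundance. The ratio of EIF4A1 to EIF4A2 overlapped between the groups (exact two-sided permutation p = 0.3). The helicase cofactors EIF4B and EIF4H and the exon junction helicase EIF4A3 had log2 fold changes of −0.01, −0.17 and −0.17 and were not called. EIF4E2 (4EHP), a cap-binding repressor, had 0.03 (SE 0.066), and EIF4E3, with a mean of 21.3 ± 4.63 against 32.9 ± 14.1, had −0.52 (SE 0.41). EIF4ENIF1, which carries eIF4E into the nucleus, had −0.14. EIF4EBP2, another inhibitor of eIF4E, had 9249, 9409.7 and 9497 normalised reads in CD104high and 7574, 9014 and 9109.6 in CD104low replicates. All 3 CD104high libraries were above the others, though the gene was not called (log2 fold change 0.14, SE 0.08, limma adjusted p = 0.243).

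**Figure D4:**
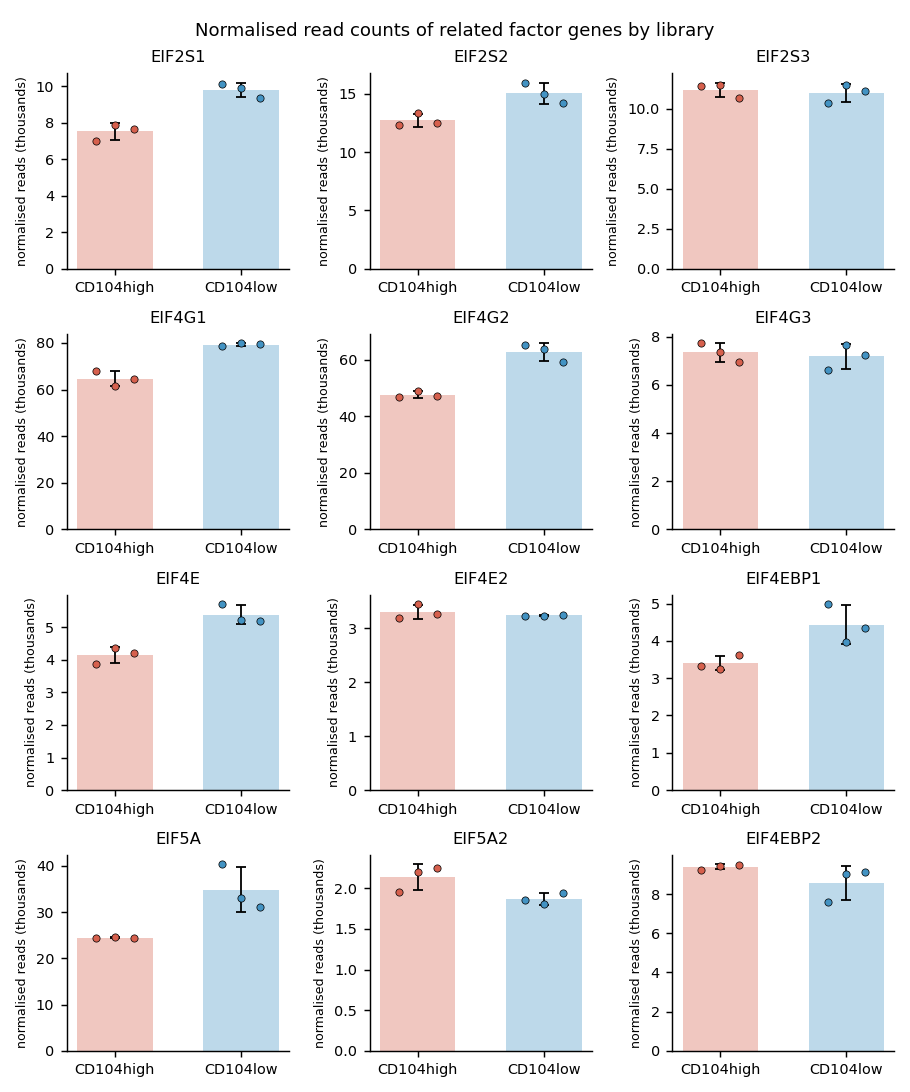
Bars give the mean normalised read count, divided by 1000, with the SD (n = 3), and points give the libraries (replicates 1 to 3 from left to right) for 12 related factor genes. EIF2S1, EIF2S2, EIF4G1, EIF4G2, EIF4E, EIF4EBP1 and EIF5A are lower in all CD104high libraries, EIF2S3, EIF4G3 and EIF4E2 overlap, and EIF5A2 and EIF4EBP2 are higher in all 3.

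Among the genes named EIF5, the groups of the main forms were apart and a paralog lay the other way. EIF5, the GTPase activator of eIF2, had 12702, 13201 and 12969 normalised reads in CD104high and 16681, 17073 and 15609 in CD104low replicates. It was 1.27-fold lower (log2 fold change −0.34, SE 0.063, limma adjusted p = 0.00458). EIF5B, the GTPase that joins the ribosomal subunits, had 10631, 11972 and 10161 normalised reads in CD104high and 13004, 13692 and 13391 in CD104low replicates, with no overlap (log2 fold change −0.29, SE 0.074, limma adjusted p = 0.0185). EIF5A, which carries the amino acid hypusine and acts in elongation and termination (ENSG00000132507.18, chromosome 17, 7306999 to 7312463, plus strand, GENCODE 29 on GRCh38), had 24438, 24629 and 24396 normalised reads in CD104high and 40273, 33105 and 30992 in CD104low replicates. The 3 CD104high libraries lay close together, CD104low replicate 1 was the highest, and the gene was 1.41-fold lower (log2 fold change −0.50, SE 0.094, limma adjusted p = 0.00506). EIF5AL1, a near-identical copy, was called lower (−0.42, limma adjusted p = 0.0408), and reads of the copies could be mixed.

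EIF5A2, the less expressed paralog of EIF5A, had 1954, 2205 and 2247 normalised reads in CD104high and 1853, 1802 and 1943 in CD104low replicates. Every CD104high library was above every CD104low library, though the gene was not called (log2 fold change 0.19, SE 0.082, limma adjusted p = 0.118). With the length and GC trend removed it passed as higher (adjusted p = 0.0184). The ratio of EIF5A to EIF5A2 per kilobase was 24.8, 22.2 and 21.6 in CD104high and 43.2, 36.5 and 31.7 in CD104low replicates 1 to 3. The ratios did not overlap (difference of the log2 ratio −0.69, exact two-sided permutation p = 0.1, the smallest possible, and 0.3 after adjustment over 6 pairs). The 6 pairs include EIF2S1 with EIF2S3, chosen after its values were seen, so this adjusted p may be too low. The calls of EIF5B and EIF5AL1 ended without CD104high replicates 1 or 3 or CD104low replicate 2 (adjusted p 0.0629 to 0.0733) for the former and without CD104high replicates 1, 2 or 3 or CD104low replicates 1 or 2 (adjusted p 0.0581 to 0.127) for the latter, while those of EIF5 and EIF5A held in every alternative at the same threshold.

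EIF1AX, the X-linked gene of eIF1A, which keeps the scanning ribosome open, had 8096, 8561 and 8967 normalised reads in CD104high and 11284, 10170.5 and 11693 in CD104low replicates. It was 1.29-fold lower with no overlap (log2 fold change −0.37, SE 0.074, limma adjusted p = 0.00661). EIF1B, a close relative of eIF1, had 1358, 1603 and 1499 normalised reads in CD104high and 2036, 1823 and 1958 in CD104low replicates, also without overlap (log2 fold change −0.38, SE 0.089, limma adjusted p = 0.013), and lost the call without CD104high replicate 1 (adjusted p = 0.0566). EIF1, which monitors start codon choice and had the most reads of this group, had 19549, 19687 and 18884 normalised reads in CD104high and 24832, 20745 and 21509 in CD104low replicates. Its groups were apart but the gene was not called (log2 fold change −0.20, SE 0.078, limma adjusted p = 0.0875), and it passed with the replicate block (adjusted p = 0.0463). EIF1AD, a gene named for its resemblance to eIF1A, was called lower (−0.21, limma adjusted p = 0.0471) and lost the call without any 1 of the 6 libraries (adjusted p 0.0632 to 0.148). EIF6, which keeps the ribosomal subunits apart and takes part in making the large subunit, had 8653, 7917 and 8967 normalised reads in CD104high and 11892, 10324 and 10705 in CD104low replicates. It was 1.29-fold lower with no overlap (log2 fold change −0.37, SE 0.077, limma adjusted p = 0.00845).

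The elongation factors with most reads, EEF1A1 and EEF2, did not pass the main test, and EEF2 passed in 8 of 20 alternatives. EEF1A1, which delivers aminoacyl-tRNA (ENSG00000156508.18, chromosome 6, 73515750 to 73523797, minus strand, GENCODE 29 on GRCh38), had 547967, 597681 and 564566 normalised reads in CD104high and 643093, 607483 and 587306 in CD104low replicates. CD104high replicate 2 was inside the CD104low range and the gene was not called (log2 fold change −0.10, SE 0.11, limma adjusted p = 0.526). At 99419.8 normalised reads per kilobase it was the most abundant member, and EEF2 followed at 28855. EEF2, the translocase, had 109472, 106171 and 106301 normalised reads in CD104high and 122535, 128133 and 124584 in CD104low replicates. Its groups did not overlap, with a log2 fold change of −0.22 (SE 0.075) and an adjusted p of 0.0574, and it passed as lower with the replicate block (adjusted p = 0.039). It also passed with edgeR on the recovered reads (adjusted p = 0.0267), with DESeq2 (adjusted p = 0.004) and with the length and GC trend removed (log2 fold change −0.30, adjusted p = 0.0108). In the authors' deposited table its adjusted p was 0.000279. EEF1A1 has many processed copies in the genome, and its reads may be shared with them.

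EEF1A2, the paralog known from muscle and neurons and from some tumours, had 1929, 1021 and 2123 normalised reads in CD104high and 1330.2, 575 and 1225 in CD104low replicates. The groups overlapped, replicate 2 was the lowest in both, and the gene was higher in CD104high in 3 of 3 numbered pairs. It was not called (log2 fold change 0.72, SE 0.33, limma adjusted p = 0.144), but with the replicate block, under which 17.4% of all genes tested were called higher, it was the only member called higher (adjusted p = 0.00035). The ratio of EEF1A1 to EEF1A2 per kilobase was 235, 483 and 219.5 in CD104high and 399, 872 and 396 in CD104low replicates 1 to 3. It overlapped between the groups (exact two-sided permutation p = 0.3, without the pairing), and was lower in CD104high in 3 of 3 numbered pairs.

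EEF1B2, a subunit of the exchange factor that reloads eEF1A, had 13965, 14439 and 14149 normalised reads in CD104high and 20806, 17104 and 16154 in CD104low replicates. The CD104high libraries were close together and all lower, and CD104low replicate 1 stood highest (log2 fold change −0.34, SE 0.091, limma adjusted p = 0.0247). EEF1D, another subunit of it, was called lower too (−0.29, limma adjusted p = 0.0445). EEF1G was not analysed here. The calls ended for EEF1B2 without CD104high replicates 1, 2 or 3 (adjusted p 0.0548 to 0.0875) and for EEF1D without CD104high replicates 1, 2 or 3 or CD104low replicates 1 or 2 (adjusted p 0.0535 to 0.13).

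The enzymes that modify the elongation factors held the largest decrease among called members. EEF1AKMT4, a lysine methyltransferase of eEF1A, had 123, 147 and 128 normalised reads in CD104high and 252, 196 and 199 in CD104low replicates. It was 1.62-fold lower with no overlap (log2 fold change −0.69, SE 0.17, limma adjusted p = 0.0188), at a low level and with at least 25% of its exon bases shared with another gene on the same strand. EEF1AKMT2, a further eEF1A methyltransferase, had 509, 559.8 and 516 normalised reads in CD104high and 655, 798 and 711 in CD104low replicates, with no overlap (log2 fold change −0.45, SE 0.11, limma adjusted p = 0.0193). EEF2KMT, which methylates eEF2, had 356, 342 and 288 normalised reads in CD104high and 469, 464 and 453 in CD104low replicates. CD104high replicate 3 was the lowest and the groups were apart (log2 fold change −0.49, SE 0.13, limma adjusted p = 0.0202). EEF1AKMT1, EEF1AKMT3 and EEF1AKNMT were not called, with log2 fold changes of −0.37, 0.09 and −0.18. EEF2K, the kinase that inhibits eEF2, had 713, 685 and 720.3 normalised reads in CD104high and 613, 635 and 622 in CD104low replicates. All CD104high libraries were above the others, though the gene was not called (log2 fold change 0.18, SE 0.096, limma adjusted p = 0.202). The calls ended for EEF1AKMT4 without CD104high replicate 1 or CD104low replicate 1 (adjusted p 0.0592 to 0.075), for EEF1AKMT2 without CD104high replicates 1 or 3 or CD104low replicate 2 (adjusted p 0.0508 to 0.0759) and for EEF2KMT without CD104high replicate 3 or CD104low replicate 2 (adjusted p 0.059 to 0.0683). Of the 9 EEF1 genes 4 were called lower (median −0.29), and of the 3 EEF2 genes 1 (median −0.22), against 11.3% of all genes tested.

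Other genes of translation that are no members were counted in lists written by hand. Beside these counts, 11.3% of all genes tested were called lower and 12.1% higher. Among helpers of initiation and recycling, 4 of 9 were called lower and 0 higher (median −0.19). ABCE1, which splits ribosomes for reuse, had 6843, 8127 and 7433 normalised reads in CD104high and 11342, 11178 and 9930.5 in CD104low replicates, with no overlap (log2 fold change −0.54, limma adjusted p = 0.00206). ABCF1, CDC123 (an assembly factor of eIF2) and ABCF2 had −0.30, −0.29 and −0.31. Among termination and rescue factors 3 of 6 were called lower and 0 higher (median −0.30), led by the release factors ETF1 (−0.45, adjusted p = 0.00232) and GSPT1 (−0.40, adjusted p = 0.0024), with HBS1L at −0.34. Of the poly(A)-binding proteins and partners 2 of 6 were called lower and 0 higher, PABPC4 (−0.24) and PABPC1 (−0.25).

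The enzymes that make hypusine on eIF5A and diphthamide on eEF2 had 3 of 9 called lower and 0 higher (median −0.19). DPH2, which starts diphthamide synthesis, had −0.58 (limma adjusted p = 0.00212), DOHH, the hydroxylase that completes hypusine, had −0.47 (adjusted p = 0.00366), and DPH7 had −0.39. DHPS, the other hypusine enzyme, had −0.04 (SE 0.21) and was not called. Of 9 tested mitochondrial translation factors 4 were called lower and 0 higher (median −0.18), namely TUFM (−0.45), GFM1 (−0.32), MTRF1L (−0.38) and MTIF2 (−0.24). The 2 selenocysteine elongation genes were not called.

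The genes that control eIF4F through mTORC1 showed less, with 1 of 14 called lower, 1 higher and a median of −0.08. Over all genes tested 11.3% were called lower and 12.1% higher. The CD104high libraries lay below for 5 of the 14 and above for 1. MLST8 and RPTOR (−0.24 and −0.20) were not called but passed as lower with the replicate block (limma adjusted p = 0.0198 and 0.0396). TSC1 and TSC2 had 0.15 and 0.15 and were not called. PDCD4, which holds the helicase eIF4A inactive, was the 1 called higher. Its values were 3389, 4120.2 and 3744 normalised reads in CD104high and 2512, 2738 and 2843 in CD104low replicates. Every CD104high library was above the others (log2 fold change 0.47, limma adjusted p = 0.00481). LARP1, which binds TOP mRNAs, was called lower (−0.24, adjusted p = 0.0239), and under alternatives its adjusted p reached 0.127. MTOR itself had −0.14 (SE 0.074, limma adjusted p = 0.194) with no overlap, and under alternatives its adjusted p ran from 0.0231 to 0.531. Cytosolic ribosomal protein genes, whose mRNAs carry the TOP motif, had 27 of 82 called lower and 0 higher (median −0.24). The CD104high libraries lay below the CD104low libraries for 62 of them, against 21.3% of all genes tested. Their median deviation from the gene mean was 0.30 in CD104low replicate 1 but 0.03 in each of CD104low replicates 2 and 3. In CD104high replicates 1 to 3 it was −0.15, −0.14 and −0.09. Of these lists' genes named as called, ABCF2, HBS1L, PABPC4, PABPC1, MTRF1L, GFM1 and MTIF2 lost the call under at least 1 alternative (highest adjusted p 0.0919, 0.0674, 0.108, 0.182, 0.0769, 0.0501 and 0.122).

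**Figure D5:**
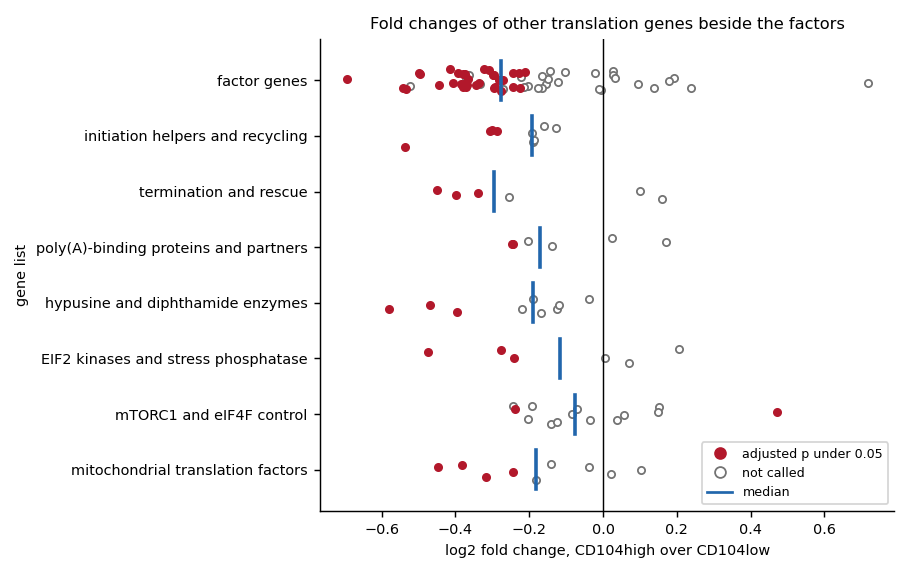
Each point is the log2 fold change (CD104high over CD104low) of 1 tested gene, for the 61 factor genes and 7 lists of other translation genes, with filled points for an adjusted p under 0.05 and a line at the median of each list. The medians run from −0.30 for termination and rescue to −0.08 for mTORC1 and eIF4F control, whose PDCD4 is the filled point right of 0.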

How the data were processed

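The authors deposited a table of gene values for 6 libraries of total RNA. The unit is a signal: deposited gene read counts divided by 1 size factor per library. Whole reads were recovered from them (a tolerance of 0.1 reads held for 99.99% of values or more). The authors also deposited a log2 fold change, its test statistic (a score) and p-values. The tools in the submitters' processing notes are DESeq2 1.30.1, featureCounts 1.5.0, STAR 2.4.0 and FastQC, and the build is hg38 (GRCh38.p13). Whether counting used strand is not given in the sources used here, and genes overlapping on opposite strands cannot be told apart.

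Values entered as log2(value + 1), which understates changes of low genes, for the 14343 genes with at least 10 in at least 3 libraries, and the groups were compared with limma-trend (limma 3.58.1 in R 4.3.3), with Benjamini-Hochberg adjustment over all genes. The fit was also run on simulated data, drawn independently for each library. The simulation held no shared deviation of same-numbered samples, so it cannot show how the fit handles such deviation. Same-numbered samples deviated together (correlations 0.17, 0.32 and 0.48), so the numbers were taken to pair the samples. This rests on the data, since the labels do not state it. The main fit is unpaired, as planned. Alternatives used the recovered reads in limma-voom, DESeq2 1.42.0 and edgeR 4.0.16, other scalings, filters and pseudocounts, no trend, the replicate block, a length and GC correction and each library left out. Intervals of counting error are not given, since replicates differed by more than it (chi-square per gene 18.0 to 42.8).

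The members and lists were chosen with earlier results of these data known. Values of every library are given for up to 24 called members with the smallest p, for the members with the smallest p and the highest mean of each complex, and for 5 paralog pairs. The EIF2S1 and EIF2S3 pair, EIF2S3, EIF4EBP2 and EEF2K were added after seeing their values. Of each other list up to 4 called genes with the smallest p are named, besides MYC, MTOR and the eIF2 kinases, and some further genes were named after their values were seen. Gene spans are from GENCODE 29, in which 62 members were matched and 13 had the same version. Promoter sequences are RefSeq's.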

Additional observations from a re-analysis of the deposited data

How the results depend on the processing

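The direction of every complex median was the same under the alternatives run, and the numbers of calls were not. Members called lower numbered 33 in the main analysis, 34 with edgeR, 37 with DESeq2, 35 with limma-voom, 17 without the mean-variance trend, 14 to 31 with 1 library left out and 11 at a threshold of 0.01. With the replicate block 38 members were called lower and 1 higher. With the trend over length and GC taken out 1 was higher, and 2 with the block added. Genes called lower in the whole table numbered 936 without the trend, 799 to 1547 with 1 library left out, 2606 with the trend over length and GC taken out and the replicate block, and 610 at 0.01. Genes called higher numbered 1017 to 1766 with 1 library left out, 2754 with the trend over length and GC taken out and the block, and 826 at 0.01. Length and GC trend removal moved the EIF1 median to −0.22, the EIF2 median from −0.12 to −0.063 and the EEF2 median to −0.30, each also with the block. Leaving out 1 library gave −0.33 to −0.24 for EIF3, −0.35 to −0.19 for EEF1 and −0.29 to −0.23 for all members. EIF4A2, near 0 in the main analysis, had −0.059 to 0.038 with 1 library left out, 0.013 with total-read scaling and 0.041 with the trend over length and GC taken out, also with the block. EIF2S3 had −0.015 to 0.060 with 1 library left out. The cause of these changes was not tested.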
